A study of Mus musculus with 6 samples.

Results

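The genes described here encode the proteasome and its regulators. They were taken by symbol from the expression table, as every gene whose symbol begins with Psma to Psmg followed by a digit, except the immunoproteasome genes *Psmb8*, *Psmb9* and *Psmb10*. The rule gave 47 of the 22611 genes of the table, and no expression level was required. Of these, 44 had a mean expression above 1 FPKM and were tested, and 3 did not (*Psma8*, *Psmb11* and *Psme2b-ps*). *Psmc3ip* matches the rule by its symbol alone, since its product is a partner of PSMC3 known for its part in meiotic recombination and is not a proteasome subunit. Epithelium was taken from the duodenum of 3 WT and 3 *Esrra-/-* mice, 1 library per mouse, after both groups had been on a high-fat diet for about 8 weeks. The *Esrra-/-* mice carried a germline null allele, which affects all tissues, and the WT mice were littermate controls. Both sexes were used and ages of these mice are not given in the sources used here. The line had been bred with the Villin-CreERT2 transgene, and whether these 6 mice carried it was not stated. The comparison asks how expression in the intestinal epithelium changes when the transcription factor ESRRA is lost.

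The proteasome is the cell's main machine for breaking down proteins tagged with ubiquitin. Its 20S core is a barrel made of outer rings of alpha subunits and inner rings of beta subunits, and the beta subunits PSMB5, PSMB6 and PSMB7 carry the catalytic sites. The 19S regulatory particle caps the barrel, with a base of ATPases (the Psmc genes) that unfold substrates and non-ATPase subunits (most Psmd genes) that bind and remove ubiquitin. Dedicated chaperones (the Psmg genes for the core, and *Psmd5*, *Psmd9* and *Psmd10* for the base) act during assembly and leave the finished particle. In mammals, transcription of the subunit genes is raised together by NFE2L1 when proteasome activity is low, and inflammatory cytokines replace the catalytic subunits by those of the immunoproteasome.

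*Esrra* stood at 49.4, 73.5 and 104 FPKM in WT against 10.4, 9.42 and 8.72 FPKM in *Esrra-/-*, which was 12.6% of the WT mean (log2 fold change -2.92, standard error 0.26, limma adjusted p = 0.0215, and 0.0204 to 0.19 over 15 alternative analyses). A two-sided exact permutation test of *Esrra* gave p = 0.1, the smallest value that 3 mice against 3 allow. FPKM is the number of fragments scaled to the length of the transcript and to the size of the library. The 18 listed markers of intestinal epithelium were all above 1 FPKM, as were 8 of 10 immune, 1 of 10 mesenchymal and 1 of 10 pancreatic acinar markers. The summed crypt and dividing cell markers ran from 247 to 370 FPKM in WT and from 125 to 279 FPKM in *Esrra-/-*, and the summed immune markers from 29.0 to 54.3 and from 26.8 to 53.2. WT replicate 3 and *Esrra-/-* replicate 3 had almost no Y-linked transcripts (0.0487 and 0.222 FPKM summed over 4 genes, against 27.3 to 46.7 in the other libraries). In bulk libraries of isolated epithelium such as these, fewer cells of a type and less RNA per cell cannot be told apart.

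Proteasome genes were expressed at high and graded levels in the duodenal epithelium. The 43 tested genes other than *Psmc3ip* ranged from 7.10 FPKM for *Psmd9* to 260 FPKM for *Psme2* as WT means, with a median of 52.0 FPKM, where the median of all genes tested was 10.1 FPKM. The highest levels were those of *Psme2* (260 ± 27.3 FPKM, SD, n = 3) and *Psme1* (230 ± 26.6), which encode the subunits of the PA28 activator. Their ranges over mice overlapped, but *Psme2* was above *Psme1* within each WT library. They were followed by the catalytic subunit gene *Psmb6* (139 ± 15.3 FPKM). The median WT level was 82.0 FPKM for the alpha subunits, 110 FPKM for the structural beta subunits, 54.2 FPKM for the base ATPases and 38.2 FPKM for the 19S non-ATPase subunits. Subunits that occur in equal numbers in the particle still differed in transcript level, from 26.7 ± 1.67 FPKM for *Psma2* to 111 ± 12.6 FPKM for *Psma4* within the alpha ring. The assembly chaperones lay far lower, with medians of 11.7 FPKM for the core and 10.5 FPKM for the base chaperones.

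**Figure D1:**
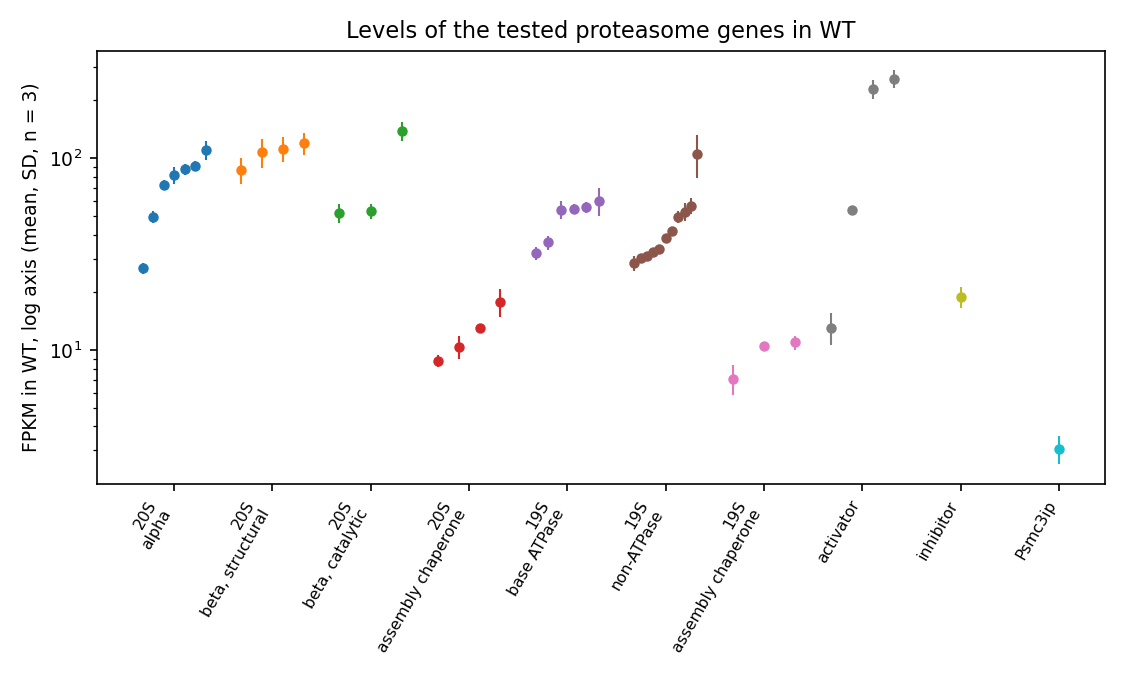
WT expression of the 44 tested genes by role, in FPKM on a log axis, with points for the mean and bars for the SD of 3 mice. The assembly chaperones sit between 7.10 and 17.9 FPKM, below every alpha, beta and 19S subunit, the lowest of which is *Psma2* at 26.7 FPKM.

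The genes that were not tested are known from other tissues or named as a pseudogene. *Psma8*, an alpha subunit of the testis, was listed at 0 in all 6 libraries. *Psmb11*, the beta subunit of the thymic cortex, lay between 0.115 and 0.228 FPKM. *Psme2b-ps*, named as a pseudogene copy of *Psme2* but typed as protein coding in the GENCODE annotation, was listed at 0 in WT replicate 1 and *Esrra-/-* replicate 3 and reached 1.29 FPKM in WT replicate 2. Reads may be split between it and *Psme2*, so the values of both genes are uncertain to that extent.

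Proteasome transcripts were called between genotypes at shares near or below those of all genes tested. At an unadjusted p under 0.05 by limma, 2 of the 44 genes were lower in *Esrra-/-* and 0 higher, where 6.49% of the 10596 genes tested were lower and 4.3% were higher. The lower genes were *Psmg1* and *Psmg2*. Neither passed a log2 fold change beyond 0.58 as well, the threshold of the study, which 3.28% of all genes passed as lower and 1.35% as higher. After adjustment over all genes tested, 0 proteasome genes had an adjusted p under 0.05, and the smallest was 0.291. Without any filter on low values 3 genes were lower, beside 886 of all 17679 genes then tested, and with quantile normalization 5 were, beside 778 of 10596. With a covariate for the libraries lacking Y-linked transcripts 4 were lower, beside 1080 of 10596, and 1 was higher (*Psme4*), beside 893.

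The estimates were narrow as well as small. Of the 44 genes, 40 (90.9%) had a log2 fold change within 0.25 of 0, which is a 1.19-fold difference, against 64.1% of all genes tested. The 95% interval lay within 0.58 on either side of 0 for 37 genes (84.1%), against 39.8% of all genes tested. Without *Psmc3ip* it was 86.0% of 43 genes, against 50.9% of the 5908 tested genes in their WT level range. The median standard error was 0.14 for the proteasome genes, 0.16 for the genes in that level range and 0.19 for all genes tested. The intervals of *Psmg1*, *Psmg2*, *Psmc3ip*, *Psmb4*, *Psme2* and *Psmd8* reached below -0.58 and that of *Psme4* reached above 0.58, so that a change of that size was not bounded for these 7 genes.

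**Figure D2:**
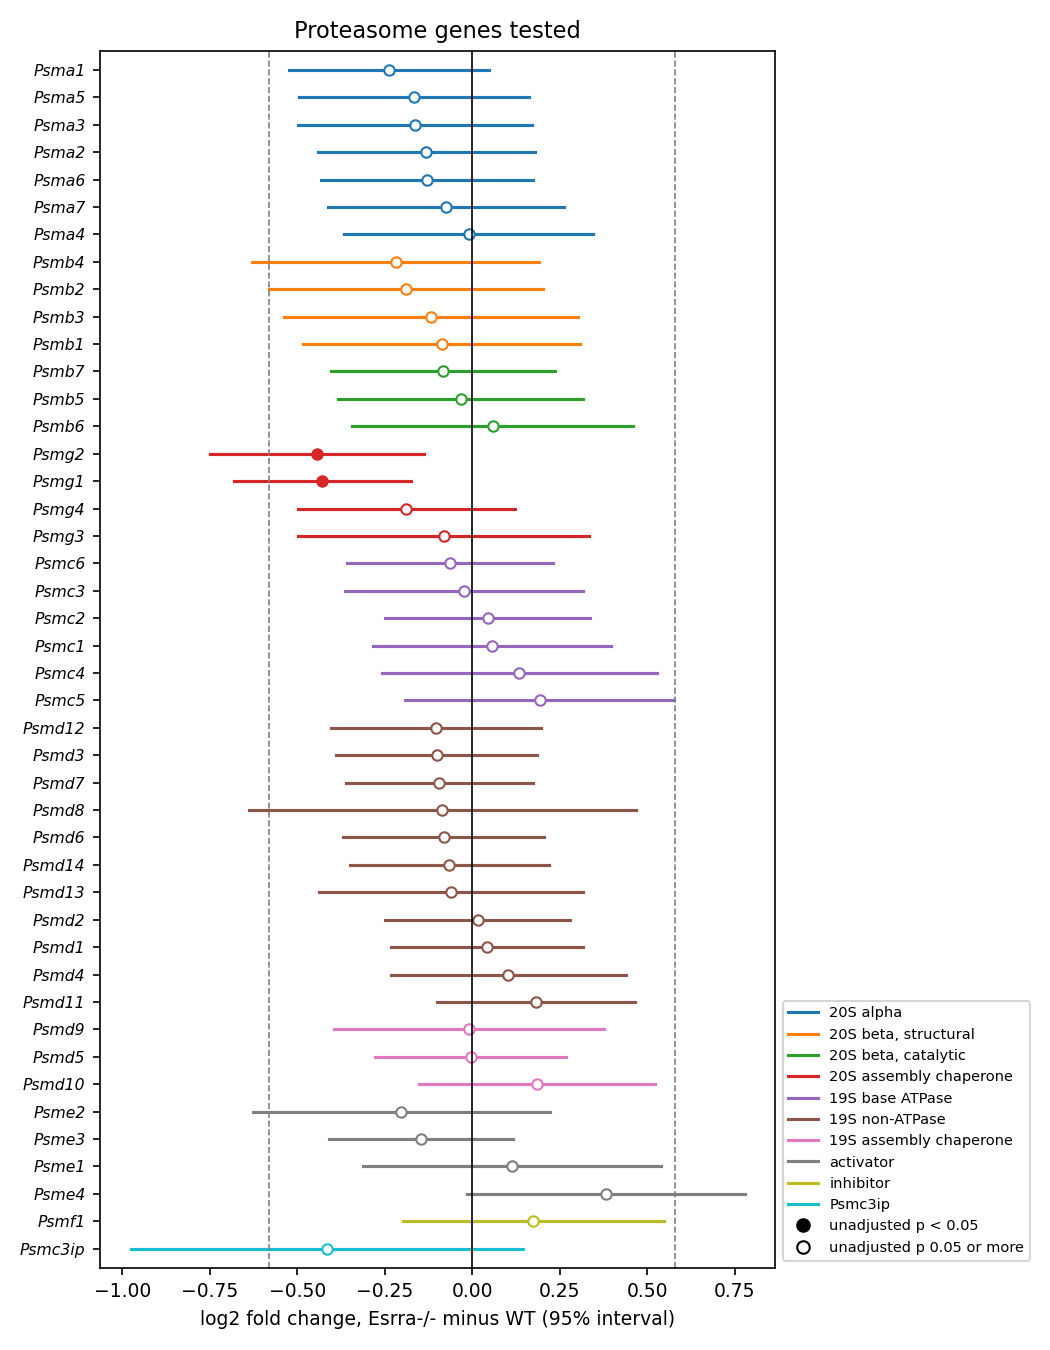
Log2 fold change (*Esrra-/-* minus WT) of the 44 tested genes by role, with the 95% interval from limma, filled points for an unadjusted p under 0.05 and dashed lines at 0.58 on either side of 0. The filled points are *Psmg1* at -0.43 and *Psmg2* at -0.44, and 37 of the 44 intervals lie between the dashed lines.

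The median log2 fold change of the 44 genes was -0.08, with 31 below and 13 above 0, where the median of all genes tested was 0.03 and 45.7% of them were below 0. Without WT replicate 3 the split was 23 below and 21 above 0, with a median of -0.02, and without *Esrra-/-* replicate 3 it was 33 and 11, with a median of -0.13. The groups did not overlap for 4 genes lower in *Esrra-/-* (*Psmg1*, *Psmg2*, *Psma1* and *Psme3*) and for 2 that were higher (*Psme4* and *Psmd11*), where 9.14% and 8.45% of all genes tested showed such a separation downward and upward.

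The assembly chaperones of the 20S core held both genes that passed the unadjusted test. PSMG1 and PSMG2 are known as a heterodimer (PAC1 and PAC2) on which the alpha ring is built. *Psmg1* had 12.7, 13.4 and 13.2 FPKM in WT and 10.0, 9.97 and 9.12 FPKM in *Esrra-/-*. Every *Esrra-/-* mouse was below every WT mouse, and the mean was 74.2% of WT (log2 fold change -0.43, standard error 0.11, unadjusted p = 0.00493, adjusted p = 0.291 by limma). *Psmg2* had 9.52, 8.39 and 8.43 FPKM in WT and 6.50, 7.11 and 5.72 FPKM in *Esrra-/-*, again without overlap. Its mean was 73.4% of WT (log2 fold change -0.44, standard error 0.13, unadjusted p = 0.0108, adjusted p = 0.336 by limma). Both genes kept an unadjusted p under 0.05 in all 15 alternative analyses, whereas their adjusted p ran from 0.117 to 0.762 for *Psmg1* and from 0.134 to 0.762 for *Psmg2*. The lowest values of both genes were in *Esrra-/-* replicate 3, the library with the lowest summed crypt and dividing cell markers (125 FPKM). The part of these cells in the difference was not tested.

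The other core chaperones were less separated. PSMG3 and PSMG4 form a further heterodimer of the same assembly pathway. *Psmg4* had 9.91, 9.22 and 11.96 FPKM in WT and 9.27, 9.13 and 8.69 FPKM in *Esrra-/-*, so that the groups overlapped (log2 fold change -0.19, 95% interval -0.50 to 0.12). *Psmg3* had 17.5, 15.1 and 21.0 FPKM in WT and 20.2, 16.0 and 14.5 FPKM in *Esrra-/-* (log2 fold change -0.08, 95% interval -0.50 to 0.33). *Pomp*, which encodes a maturation factor of the core, averaged 149 ± 21.8 FPKM across WT mice and 153 ± 28.1 FPKM across *Esrra-/-* mice (SD, n = 3). Its log2 fold change was 0.03 with a 95% interval from -0.41 to 0.47.

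**Figure D3:**
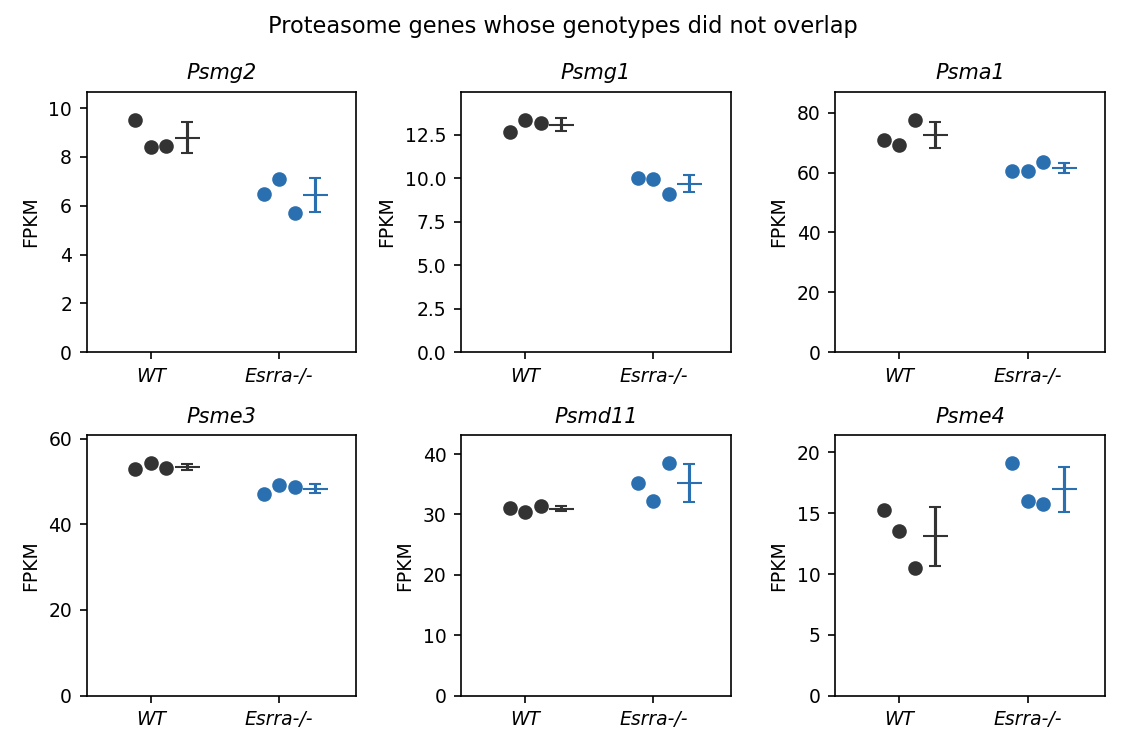
FPKM of the 6 proteasome genes whose genotypes did not overlap, with a point per mouse and the mean and SD of 3 mice beside them, each axis starting at 0. *Psmg1* and *Psmg2* lie at 74.2% and 73.4% of the WT mean, *Psma1* at 84.7%, *Psme3* at 90.3%, *Psmd11* at 114% and *Psme4* at 129%.

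Most subunit genes of the 20S core had an estimate below 0 in *Esrra-/-*, but none had an unadjusted p under 0.05 at the settings used throughout. All 7 alpha subunits had a log2 fold change below 0, from -0.24 for *Psma1* to -0.01 for *Psma4*. *Psma1* had 71.1, 69.4 and 77.6 FPKM in WT and 60.6, 60.4 and 63.6 FPKM in *Esrra-/-*, without overlap (unadjusted p = 0.0889, adjusted p = 0.531 by limma). The 4 structural beta subunits were also below 0, from -0.22 for *Psmb4* to -0.09 for *Psmb1*. *Psmb4* had 76.6, 82.1 and 102 FPKM in WT and 68.7, 66.9 and 88.2 in *Esrra-/-*, so that replicate 3 was highest in either genotype and the groups overlapped. With the covariate for the libraries lacking Y-linked transcripts, the unadjusted p was 0.0281 for *Psma1* and 0.0423 for *Psmb4* by limma, and both were also under 0.05 with quantile normalization. With the catalytic subunits, 13 of 14 core genes were below 0 with a median of -0.12. The median ran from -0.21 without *Esrra-/-* replicate 3 to -0.04 without WT replicate 3, when 10 of 14 were below 0.

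The catalytic subunits differed little between genotypes. *Psmb5*, which encodes the chymotrypsin-like subunit, had 48.1, 49.1 and 58.7 FPKM in WT and 45.8, 48.7 and 57.9 in *Esrra-/-* (log2 fold change -0.03, 95% interval -0.38 to 0.32). *Psmb6*, for the caspase-like subunit, had 126, 136 and 156 FPKM in WT and 138, 127 and 171 in *Esrra-/-* (log2 fold change 0.06, 95% interval -0.34 to 0.46). *Psmb7*, for the trypsin-like subunit, had 48.6, 52.1 and 58.02 FPKM in WT and 47.3, 47.2 and 55.2 in *Esrra-/-* (log2 fold change -0.08, 95% interval -0.40 to 0.24). The groups overlapped for each of them.

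The immunoproteasome genes replace these subunits position by position and give a scale for them. Immune cells also express them, and the part of the immune transcripts in these libraries (26.8 to 54.3 FPKM summed over 10 markers) in their levels was not tested. *Psmb8*, the counterpart of *Psmb5*, stood at 2.38, 2.13 and 2.004 times the level of *Psmb5* in the WT libraries and at 2.28, 2.71 and 2.73 times in the *Esrra-/-* libraries. *Psmb10*, the counterpart of *Psmb7*, stood at 2.23, 2.09 and 1.91 times in WT and at 1.81, 1.76 and 1.99 times in *Esrra-/-*. *Psmb9* was below its counterpart *Psmb6* throughout, at 0.511, 0.359 and 0.314 times in WT and 0.394, 0.5801 and 0.330 times in *Esrra-/-*. Summed over the 3 positions, immunoproteasome transcripts were 1.14 ± 0.139 times the constitutive ones in WT and 1.17 ± 0.119 times in *Esrra-/-* (SD, n = 3 each), a sum that combines ratios above and below 1. None of the 3 genes passed an unadjusted p of 0.05. *Psmb10* did so in 3 of 15 alternative analyses, with a log2 fold change of -0.37 and an unadjusted p of 0.0308 by limma without *Esrra-/-* replicate 3. Their log2 fold changes were 0.21 for *Psmb8*, 0.19 for *Psmb9* and -0.25 for *Psmb10*, and their 95% intervals all passed 0.58 in one direction.

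**Figure D4:**
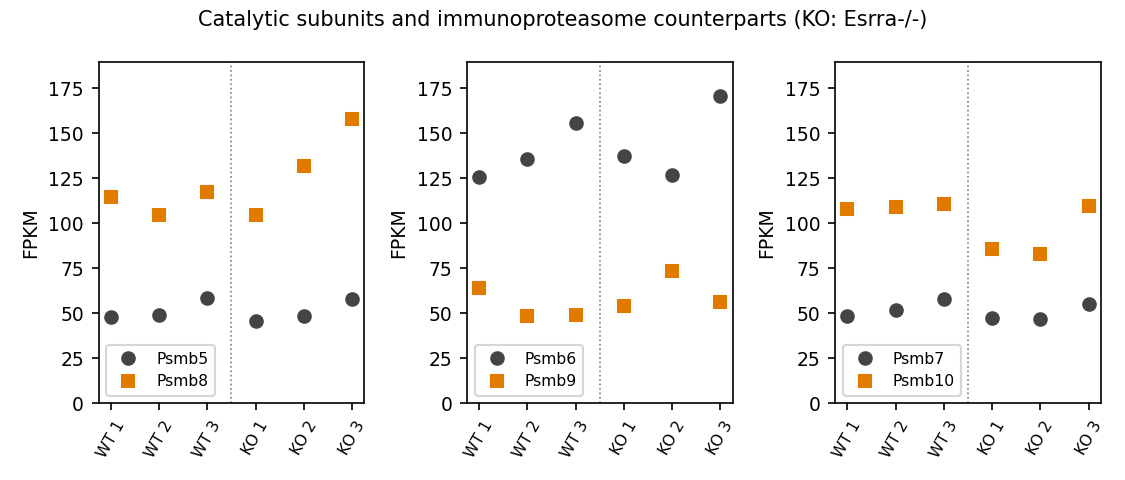
FPKM of the 3 constitutive catalytic subunit genes (circles) and their immunoproteasome counterparts (squares) in each of the 6 libraries, with WT left and *Esrra-/-* (KO) right of the dotted line. *Psmb8* and *Psmb10* lie above *Psmb5* and *Psmb7* in every library, and *Psmb9* lies below *Psmb6* in every library.

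In the 19S particle the base ATPases were spread on either side of 0. Of the 6 genes, 4 had a log2 fold change above 0, and the median was 0.05. The highest was *Psmc5* with 55.4, 47.7 and 58.9 FPKM in WT and 56.9, 55.4 and 73.8 FPKM in *Esrra-/-* (log2 fold change 0.19, 95% interval -0.19 to 0.58), and the lowest was *Psmc6* at -0.06. The sign of the median did not hold under every analysis, since it was -0.01 with quantile normalization and -0.03 without *Esrra-/-* replicate 3. Of the 11 non-ATPase genes, 7 were below and 4 were above 0, from -0.10 for *Psmd12* to 0.18 for *Psmd11*. *Psmd11*, for a scaffold subunit of the lid, had 31.1, 30.5 and 31.4 FPKM in WT and 35.1, 32.1 and 38.4 FPKM in *Esrra-/-* (unadjusted p = 0.173, adjusted p = 0.613 by limma). Among the base chaperones, *Psmd5* and *Psmd9* were at -0.00 and -0.01 and *Psmd10*, also known as gankyrin, at 0.18 (95% interval -0.15 to 0.52).

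The estimates of the activators that bind the ends of the core ran from -0.20 to 0.38. *Psme4* encodes PA200, a large nuclear activator, and had the highest estimate of the 44 genes. It had 15.3, 13.6 and 10.5 FPKM in WT and 19.1, 16.0 and 15.8 FPKM in *Esrra-/-*, which did not overlap, at 129% of the WT mean (log2 fold change 0.38, standard error 0.17, unadjusted p = 0.0566, adjusted p = 0.477 by limma). The unadjusted p was under 0.05 in 3 of the 15 alternatives, among them the covariate for the libraries lacking Y-linked transcripts and the analysis without WT replicate 1 (log2 fold change 0.50). Its order among libraries ran against most subunits, since replicate 3 was the lowest of either genotype. *Psme3*, for the nuclear activator PA28 gamma, had 53.0, 54.2 and 53.1 FPKM in WT and 47.1, 49.2 and 48.6 FPKM in *Esrra-/-* (log2 fold change -0.15, 95% interval -0.41 to 0.12), again without overlap. *Psme1* and *Psme2*, whose products share a ring, had estimates of opposite sign, 0.11 (95% interval -0.31 to 0.54) and -0.20 (95% interval -0.63 to 0.22). The ratio of *Psme2* to *Psme1*, looked at after their values were seen and not tested, was 1.148, 1.118 and 1.119 in the WT libraries and 0.981, 0.829 and 0.914 in the *Esrra-/-* libraries. *Psmf1*, for the inhibitor PI31, averaged 18.9 ± 2.45 FPKM across WT mice and 21.4 ± 3.25 FPKM across *Esrra-/-* mice (SD, n = 3). Its log2 fold change was 0.17, with a 95% interval from -0.20 to 0.55.

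Across the libraries, most proteasome genes were highest in replicate 3 of either genotype. Each gene was set against its own mean over the 6 libraries on the log2 scale. For the WT mice the median deviation came to -0.04, -0.03 and 0.13, and for the *Esrra-/-* mice to -0.10, -0.11 and 0.11, while that of all genes tested stayed between -0.02 and 0.04. WT replicate 3 was thus the highest WT library and *Esrra-/-* replicate 3 the highest of its group, at a similar level. Replicate 3 was the highest library in both genotypes for 27 of the 44 genes (61.4%), against 28.1% of all genes tested. These are the libraries with almost no Y-linked transcripts, and the summed epithelial markers were also highest there, with 44702, 43280 and 68769 FPKM in WT and 63799, 52628 and 72612 FPKM in *Esrra-/-*. The crypt markers were lowest there (247 and 125 FPKM). The part of sex, of cell makeup or of the library itself in the pattern was not tested. *Psmd8*, a lid subunit, was an example, with 89.7, 90.7 and 136 FPKM in WT and 81.5, 90.5 and 126 FPKM in *Esrra-/-*. With both of these libraries left out, 2 genes were lower and 0 higher at an unadjusted p under 0.05, again *Psmg1* and *Psmg2*, and 30 of the 44 genes were below 0.

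**Figure D5:**
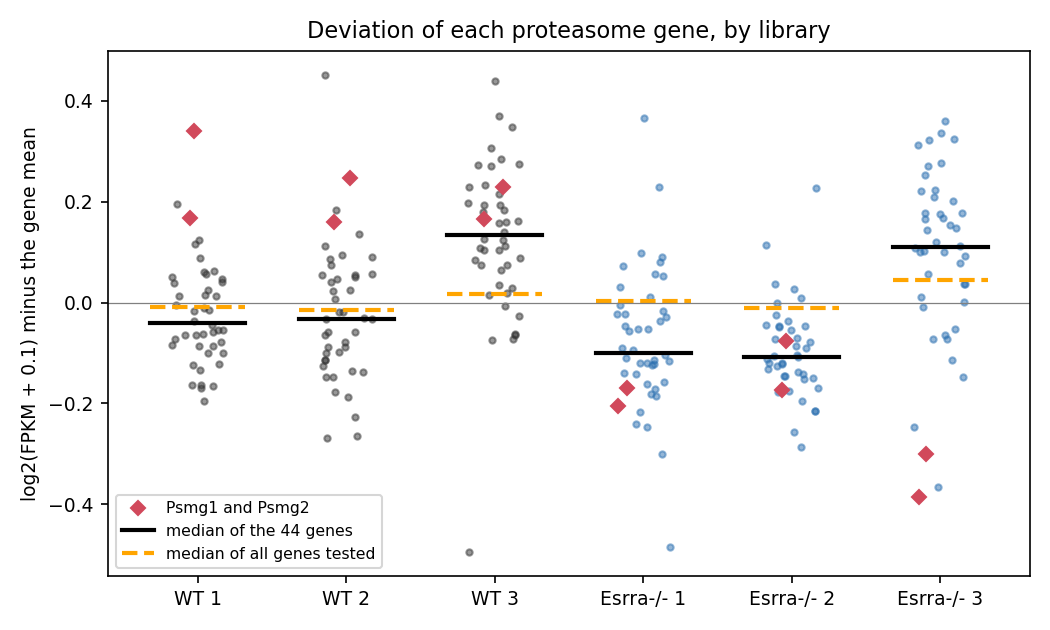
Deviation of each of the 44 tested genes from its own mean, on the log2(FPKM + 0.1) scale, in each library, with black lines for their median, dashed lines for the median of all genes tested and diamonds for *Psmg1* and *Psmg2*. The black lines reach 0.13 in WT replicate 3 and 0.11 in *Esrra-/-* replicate 3, and in the latter the diamonds are among the lowest points.

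The core chaperones differed from this pattern in *Esrra-/-*, where all 4 were lowest in replicate 3. In WT, *Psmg3* and *Psmg4* were highest in replicate 3, *Psmg1* in replicate 2 and *Psmg2* in replicate 1. The median deviation of the 4 Psmg genes was 0.10, 0.05 and 0.26 in the WT libraries and -0.11, -0.09 and -0.27 in the *Esrra-/-* libraries, so that *Esrra-/-* replicate 3 was their lowest library, although it was the highest library of its group for the 14 subunits of the core (0.13).

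Promoter sequences are shown for the genes at the ends of these comparisons and for those that hold a motif of interest. RefSeq promoters, from 250 bases before to 50 after the start, were found by symbol for 38 of the 47 genes, with no entry for *Psma8*, *Psmb1*, *Psmb2*, *Psmb7*, *Psmc3*, *Psmd3*, *Psmd7*, *Psme2b-ps* and *Psmg2*. The ESRR motif TCAAGGTCA was searched on both strands, with its shorter part AAGGTCA, which it contains. The longer form occurred in the promoter of 1 gene, *Psmc3ip*, and in 0.423% of all 32851 promoters. The shorter form occurred in those of *Psma3*, *Psmc3ip* and *Psmd2*, 7.89% of the 38 genes, and in 4.72% of all promoters. The antioxidant response element core TGACNNNGC, which NFE2L1 and NFE2L2 are known to bind, occurred in 6 (*Psmb5*, *Psmb6*, *Psmc6*, *Psmd9*, *Psmd12* and *Psme4*, 15.8%, against 12.4% of all promoters). The ETS motif CCGGAAG occurred in 15 of the 38 genes (39.5%, against 8.86% of all promoters) and GCGCANGC, for the nuclear respiratory factor NRF1, in 9 (23.7%, against 9.95%). CCAAT occurred in 14 (36.8%, against 37.4%). For the 38 genes a gene was counted once if any of its promoters held a match. For all promoters each entry was counted, expressed or not, so the shares are unlike measures. In the sequences below, read 5′ to 3′ along the gene, capitals mark matches to these motifs other than CCAAT.

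*Psmg1* is shown as a gene that passed the unadjusted test. Its promoter (mm9 chr16:96212518-96212817, minus strand, gene at 96201540 to 96212567) holds CCGGAAG from 69 bases before the start and GCGCANGC on both strands, overlapping, within the transcribed part.
Psmg1: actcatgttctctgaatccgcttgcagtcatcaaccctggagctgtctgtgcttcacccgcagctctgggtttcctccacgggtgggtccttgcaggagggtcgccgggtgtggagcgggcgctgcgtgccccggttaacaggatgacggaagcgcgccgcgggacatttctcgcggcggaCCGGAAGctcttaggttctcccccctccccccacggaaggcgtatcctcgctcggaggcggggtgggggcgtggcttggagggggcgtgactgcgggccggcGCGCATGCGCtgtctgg
*Psme4* is shown for the highest estimate. Its promoter (mm9 chr11:30671525-30671824, plus strand) holds an ETS match 53 bases before the start and an antioxidant response element match on the minus strand that begins 7 bases before it. That of *Psmb6* (mm9 chr11:70338609-70338908, plus strand), a catalytic subunit gene with a log2 fold change of 0.06, holds the same element from 9 bases before the start.
Psme4: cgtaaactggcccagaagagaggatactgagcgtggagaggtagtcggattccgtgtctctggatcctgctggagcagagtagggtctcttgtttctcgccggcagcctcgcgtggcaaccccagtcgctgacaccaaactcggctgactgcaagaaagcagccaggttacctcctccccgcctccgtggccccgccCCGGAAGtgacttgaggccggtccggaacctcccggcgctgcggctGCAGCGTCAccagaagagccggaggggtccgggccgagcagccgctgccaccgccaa
Psmb6: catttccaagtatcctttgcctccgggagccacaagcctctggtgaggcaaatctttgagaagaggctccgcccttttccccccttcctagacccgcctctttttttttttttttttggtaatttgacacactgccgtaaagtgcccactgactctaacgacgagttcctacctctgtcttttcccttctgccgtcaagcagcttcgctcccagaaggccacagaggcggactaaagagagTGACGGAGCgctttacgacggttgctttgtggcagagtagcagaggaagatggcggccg
The promoters with an ESRR match are those of *Psmc3ip* (mm9 chr11:100956700-100956999, minus strand), with TCAAGGTCA from 238 bases before the start, of *Psma3* (mm9 chr12:72075360-72075659, plus strand), with the shorter form on the minus strand from 153 bases before it, and of *Psmd2* (mm9 chr16:20651475-20651774, plus strand), with the shorter form on the minus strand from 214 bases before it.
Psmc3ip: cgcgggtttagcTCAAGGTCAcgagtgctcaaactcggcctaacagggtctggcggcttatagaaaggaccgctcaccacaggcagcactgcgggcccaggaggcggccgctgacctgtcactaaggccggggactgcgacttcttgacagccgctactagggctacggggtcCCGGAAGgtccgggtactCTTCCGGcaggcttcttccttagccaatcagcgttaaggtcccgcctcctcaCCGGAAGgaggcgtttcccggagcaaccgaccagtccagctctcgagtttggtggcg
Psma3: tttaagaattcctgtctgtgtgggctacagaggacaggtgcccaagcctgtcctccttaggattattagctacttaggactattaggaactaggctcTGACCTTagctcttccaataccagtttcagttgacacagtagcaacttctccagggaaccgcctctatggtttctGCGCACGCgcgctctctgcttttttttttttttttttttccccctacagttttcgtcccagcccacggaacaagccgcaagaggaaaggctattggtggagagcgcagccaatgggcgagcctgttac
Psmd2: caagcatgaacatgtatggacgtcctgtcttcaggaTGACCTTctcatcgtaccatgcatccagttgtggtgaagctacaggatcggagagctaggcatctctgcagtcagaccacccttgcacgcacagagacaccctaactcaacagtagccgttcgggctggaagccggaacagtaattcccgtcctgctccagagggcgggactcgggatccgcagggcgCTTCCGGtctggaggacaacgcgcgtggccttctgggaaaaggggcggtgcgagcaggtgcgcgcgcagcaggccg

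None of the 3 genes with an ESRR match passed an unadjusted p of 0.05. The paper also mapped regions bound by ESRRA, by ChIP-seq of duodenal villi from chow-fed mice. Those regions were not compared with these promoters here. *Psmc3ip* had 2.63, 3.61 and 2.92 FPKM in WT and 1.84, 3.07 and 2.004 FPKM in *Esrra-/-*, so that the groups overlapped at 75.4% of the WT mean (log2 fold change -0.41, standard error 0.24, unadjusted p = 0.124, adjusted p = 0.571 by limma). Without *Esrra-/-* replicate 2 it was among the genes with an unadjusted p under 0.05. *Psma3* had 73.9, 81.3 and 90.7 FPKM in WT and 69.0, 69.9 and 80.3 FPKM in *Esrra-/-* (log2 fold change -0.16, 95% interval -0.50 to 0.17). *Psmd2*, for a large scaffold subunit of the base, was close to level with 39.5, 36.4 and 38.8 FPKM in WT and 38.3, 39.4 and 38.2 FPKM in *Esrra-/-* (log2 fold change 0.01, 95% interval -0.25 to 0.28).

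Proteins that work with the proteasome under other symbols were called at a share near or below that of all genes. The list of ubiquitin receptors, shuttle factors, deubiquitinating enzymes, ubiquitin genes and transcriptional regulators had 35 genes in the table, all of which were tested. At an unadjusted p under 0.05 1 was lower and 0 were higher, where 6.49% and 4.3% of all genes tested were, with a median log2 fold change of 0.08 and 13 genes below 0. The lower gene was *Rps27a*, which encodes ubiquitin fused to a ribosomal protein, with 237, 291 and 287 FPKM in WT and 205, 218 and 205 FPKM in *Esrra-/-* (log2 fold change -0.37, standard error 0.15, unadjusted p = 0.047, adjusted p = 0.455 by limma). Its unadjusted p was under 0.05 in 8 of 15 alternative analyses. Of the deubiquitinating enzymes on the 19S particle, *Usp14* had 17.0, 14.1 and 13.5 FPKM in WT and 12.4, 12.5 and 11.4 FPKM in *Esrra-/-*, without overlap (log2 fold change -0.29, unadjusted p = 0.0585, adjusted p = 0.48 by limma). Its unadjusted p was under 0.05 in 4 of the 15 alternatives. *Uchl5* had a log2 fold change of -0.13 (95% interval -0.41 to 0.15). The groups did not overlap for 2 lower genes of the list (*Rps27a* and *Usp14*) and for 3 higher ones of the 35, where 9.14% and 8.45% of all genes tested showed this. *Faf2*, for a cofactor of the segregase VCP, had 18.8, 16.7 and 14.4 FPKM in WT and 20.4, 19.95 and 21.002 FPKM in *Esrra-/-* (log2 fold change 0.30, unadjusted p = 0.0524, adjusted p = 0.47 by limma), and its unadjusted p was under 0.05 in 4 of the 15 alternatives. *Ubqln1*, for a shuttle factor, and *Vcp* itself were at 0.21 (95% interval -0.09 to 0.51) and 0.14 (95% interval -0.15 to 0.44). *Adrm1*, for a ubiquitin receptor, was at 0.12 (95% interval -0.24 to 0.48). The transcription factor genes *Nfe2l1* and *Nfe2l2* were at 0.15 (95% interval -0.19 to 0.49) and -0.17 (95% interval -0.59 to 0.24).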

How the data were processed

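RNA-seq libraries of the duodenal epithelium of 3 WT and 3 *Esrra-/-* mice were used. Per the labels and the paper, the authors checked the reads with FastQC (0.11.3), quantified them with Kallisto (given as version 2.1.0) against mm9 and deposited FPKM values calculated with DESeq2 (given as version 2.2.1). The annotation they used is not given in the sources used here. A deposited table of their own comparison (fold changes and p-values) was not used. FPKM give no depth, so precision rests on the spread between mice. The most common ratios of low values to WT replicate 1 ran from 0.976 to 1.21, which is relative scaling.

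Here log2(FPKM + 0.1) of the 10596 genes with a mean above 1 FPKM was fitted with limma (3.58.1, R 4.3.3) with a mean-variance trend, no covariate and Benjamini-Hochberg adjustment over all genes tested, after the procedure had been tested on data with known answers. Fold changes are on this scale, which understates those of low genes. No count test was run, as the values are not counts. Reads shared with pseudogenes, which the annotation lists for *Psmb5*, *Psmb6* and *Psmb7*, could have been split by the quantification.

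The members and lists were chosen with earlier results of these data known. Genes were named by rule: the lowest and highest log2 fold change in each role, those with an unadjusted p under 0.05, catalytic subunits and immunoproteasome counterparts, activators, the inhibitor, genes under the filter, the ends of the level range and the main associated factors. *Psmd8*, *Psmd2*, *Psma3*, *Psma2*, *Psmg4*, *Psmd5*, *Psmb2*, *Faf2*, *Ubqln1*, *Vcp*, *Tap1*, *Tap2*, *Tapbp* and *Erap1* were named after their values were seen, and their alternatives were added then. A result for 1 further gene is not reported here. Promoters were RefSeq's (GRCm38.p6), and those shown were matched exactly to NCBIM37 (mm9), each at 1 place. Gene positions were from GENCODE M1. Alternatives were another pseudocount, other filters, quantile and median-ratio scaling, no trend, the replicate number as a block, a Y-linked covariate, each library left out, other thresholds and *Psmc3ip* left out. Leaving out both libraries without Y-linked transcripts was chosen after seeing the data.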

Additional observations from a re-analysis of the deposited data

How the results depend on the processing

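The count of proteasome genes lower at an unadjusted p under 0.05 was 2 and moved to 5 with quantile normalization, 5 with the replicate block and 4 with the Y-linked covariate, and to 0 when a log2 fold change beyond 0.58 or an adjusted p under 0.05 was required. It lay between 2 and 3 with each library left out. The count of higher genes was 0 and moved to 1 (*Psme4*) with the replicate block and with the Y-linked covariate, and lay between 0 and 1 with each library left out, with *Psme4* without WT replicate 1. The genes added as lower were *Psma1*, *Psmb2*, *Psmb4* and *Psmc3ip*. With the replicate block, *Usp14*, *Faf2* and *Ubqln1* also had an unadjusted p under 0.05. Over all genes, the counts at the thresholds of the study were 348 lower and 143 higher. They moved to 528 and 277 with no filter on low values, and to 2 and 2 at an adjusted p under 0.05, and ranged from 252 to 533 and from 143 to 214 with each library left out, the highest count of lower genes being without *Esrra-/-* replicate 2. At an unadjusted p alone they were 688 and 456, and moved to 1194 and 1091 with the replicate block and to 1080 and 893 with the Y-linked covariate, with ranges of 415 to 784 and 273 to 522 with each library left out. The counts without WT replicate 2 were 455 and 292, and those without *Esrra-/-* replicate 1 were 415 and 273. The replicate numbers were not treated as pairing the mice, since the sample titles do not state a pairing. The deviations of same-numbered libraries correlated at 0.01, 0.26 and 0.38 across genes, and those of differently numbered ones at -0.37 to 0.18. Whether the numbers pair the mice cannot be told from these values. The cause of these moves was not tested. The median log2 fold change of the proteasome genes stayed below 0 in every alternative, from -0.13 to -0.02. Of the 46 genes followed one by one other than *Esrra*, 33 kept their sign in every alternative, and the 13 that changed it did not pass an unadjusted p of 0.05 on either side. With 3 mice a group, the median standard error of 0.14 sets what could be called.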

Other observations

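Genes that carry proteasome products to the cell surface were measured beside the immunoproteasome. *Tap2*, which encodes a subunit of the transporter that takes peptides into the endoplasmic reticulum, had 25.8, 16.8 and 19.7 FPKM in WT and 27.2, 33.0 and 32.4 FPKM in *Esrra-/-*, without overlap (log2 fold change 0.59, standard error 0.18, unadjusted p = 0.0138, adjusted p = 0.353 by limma). Its unadjusted p was under 0.05 in 14 of 15 alternatives, the exception being that without both libraries lacking Y-linked transcripts (log2 fold change 0.52, adjusted p = 0.494 by limma). *Tap1*, for the other subunit, had 31.1, 29.6 and 23.7 FPKM in WT and 28.9, 43.8 and 37.0 FPKM in *Esrra-/-*, so that the groups overlapped (log2 fold change 0.37, unadjusted p = 0.0922, adjusted p = 0.533 by limma), and its unadjusted p was 0.0288 without *Esrra-/-* replicate 1. *Tapbp*, for the factor that links the transporter to class I molecules, was at 0.08 (95% interval -0.33 to 0.49), and *Erap1*, for a peptide-trimming enzyme, at 0.03 (95% interval -0.42 to 0.47).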
